A study of Mus musculus with 18 samples.

Results

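Ribosome footprints of TC1 cells carrying a guide RNA against Nat10 (sgNAT10) were compared with those of wild-type TC1 cells (WT), with 2 libraries of each genotype, 4 of the 18 samples of the series. TC1 is a mouse tumour line that the labels call fibrosarcoma, and the genotype label of the WT libraries names no guide. Whether the sgNAT10 cells are a clone or a pool and whether libraries came from separate cultures are not given in the sources used here, so the p-values measure the spread between these libraries, which may be technical. The genes compared were those with a mean of at least 1 FPKM (fragments per kilobase of gene, scaled to the mapped fragments of the library) over the 4 libraries, 9707 of the 10974 genes of the footprint table. They were tested on log2(FPKM + 1), a scale that understates the change of low genes, and a gene was called when its adjusted p was under 0.05. Each log2 change below is sgNAT10 minus WT with its standard error.

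In Ribo-seq the stretch of RNA that a translating ribosome covers is protected from nuclease and sequenced, so that the footprints on a gene follow both how much of its mRNA is present and how many ribosomes it holds. NAT10 is a nucleolar enzyme that acetylates cytidines in RNA, among them sites of 18S ribosomal RNA and of some transfer RNAs. Proteins that leave the cell or sit in its membranes are made at the endoplasmic reticulum, nuclear proteins and most mitochondrial proteins on free cytosolic ribosomes, and a few core subunits of the respiratory chain on the ribosomes inside mitochondria.

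Nat10 itself had 8.33 and 6.602 FPKM of footprints in sgNAT10 cells, against 11.9 and 17.4 FPKM in WT cells. The groups did not overlap, but the log2 change of -0.87 ± 0.31 did not pass the test (adjusted p = 0.193). These values rest on 107 and 41 reads in sgNAT10 libraries and 135 and 192 reads in WT libraries. In mRNA the same gene had 3.59 and 3.95 FPKM in sgNAT10 cells, against 5.36 and 5.302 FPKM in WT cells, and passed (log2 change -0.41 ± 0.06, adjusted p = 0.00266). A guide can change the reading frame without removing the transcript, so neither readout measures the protein. Of the other genes in the pathway that the series title names, Myc lost footprints, with 80.2 and 126 FPKM in sgNAT10 cells, against 281 and 281 FPKM in WT cells (log2 change -1.47 ± 0.22, adjusted p = 0.0298). The footprints of Cdk2, a kinase of S phase entry, had a log2 change of 0.23 ± 0.24 (adjusted p = 0.649). Those of Dnmt1, which copies DNA methylation, had 0.03 ± 0.15 (adjusted p = 0.939).

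Whole reads could be recovered from the FPKM values of 99.98% of genes, and gave 3148083 and 1514086 reads on genes in the sgNAT10 libraries, against 2743627 and 2694834 in the WT libraries. The median tested gene held 59 to 121 reads per library, so that genes near 1 FPKM rest on few reads. Of 10 fibroblast markers 9 were in the table, with a summed level of 1464 and 1495 FPKM in sgNAT10 cells, against 734 and 733 FPKM in WT cells, most of it Vim, while Col1a1 and Dcn were below 1 FPKM in each library. None of 6 endothelial and 4 B cell markers was in the footprint table, 1 of 7 T cell markers was (Lck, below 1 FPKM in each library), and 2 of 8 macrophage and 2 of 9 epithelial markers were, the highest being Cd14 and Krt18.

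The footprint libraries also held transcripts known from liver, which were seen in the data and then listed. All 20 of a list of hepatocyte genes passed the minimum in footprints, and their summed level was 262 and 453 FPKM in sgNAT10 cells, against 1005 and 232 FPKM in WT cells. WT replicate 1 was the highest library for each of the 20. Albumin alone had 94.7 and 163 FPKM in sgNAT10 cells, against 368 and 84.99 FPKM in WT cells, while its mRNA was below 0.2 FPKM in every mRNA library. The 20 genes took 0.0599% and 0.1% of reads in sgNAT10 libraries, against 0.236% and 0.0531% in WT libraries. None of them was called, by limma on FPKM or by limma voom on the recovered reads, with 0 at an unadjusted p under 0.05, and their part in other results was not tested beyond leaving out the genes that are near 0 in mRNA.

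**Figure D1:**
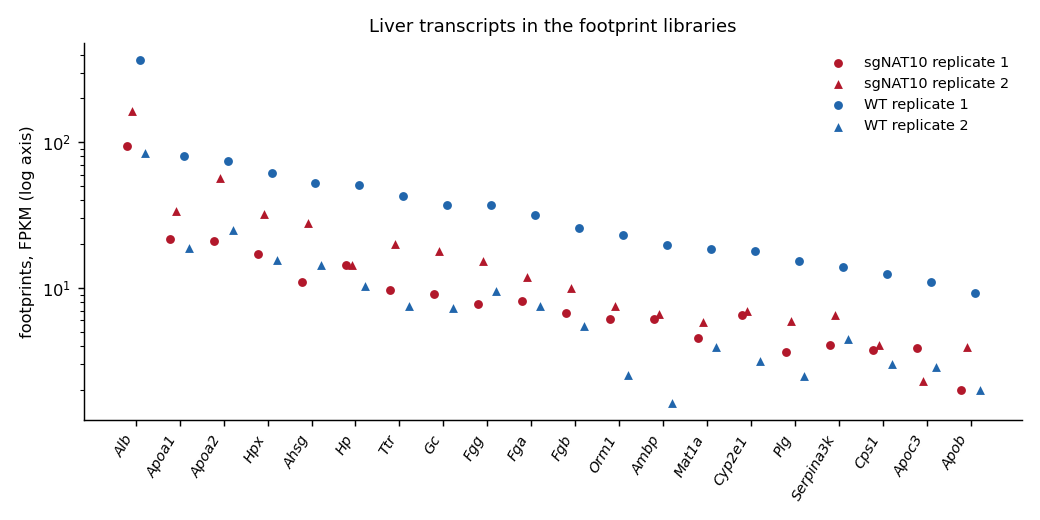
Footprint level (FPKM, log axis) of 20 hepatocyte genes in the 4 libraries, sgNAT10 in red left of WT in blue, with circles for replicate 1 and triangles for replicate 2. WT replicate 1 is the highest library for all 20 genes, and albumin reaches 368 FPKM there.

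Of the 9707 genes, 300 were called (3.09%), 176 with more footprints in sgNAT10 cells (1.81%) and 124 with fewer (1.28%). At an unadjusted p under 0.05 were 2009 of the 9707. In all 300 the sgNAT10 libraries lay outside the range of the WT libraries, as they did in 51.1% of all genes tested. The median log2 change over all genes tested was -0.0015. The calls are given next for 4 Gene Ontology classes, where a gene can belong to several. Of 636 genes annotated as extracellular, 50 rose (7.86%) and 27 fell (4.25%), with a median log2 change of 0.04. That median was 0.12 over the 583 of them with at least 0.2 FPKM in mRNA, which leaves out 19 of the 20 hepatocyte genes (Apoa2 is kept). Of 1735 genes of the plasma membrane, 63 rose (3.63%) and 27 fell (1.56%), with a median of 0.10. Of 4608 nuclear genes, 66 rose (1.43%) and 49 fell (1.06%), with a median of -0.03. Of 1349 mitochondrial genes, 15 rose (1.11%) and 24 fell (1.78%), with a median of -0.04. No test compared these classes.

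With 1 of the 4 libraries left out, whichever it was, limma called 0 genes, with 1205 to 1756 genes at an unadjusted p under 0.05, and the 300 genes kept their sign. The kept sign was fixed in advance, because the groups of these 300 genes do not overlap. Without a trend in the variance 87 genes were called, and limma voom on the recovered reads called 846.

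**Figure D2:**
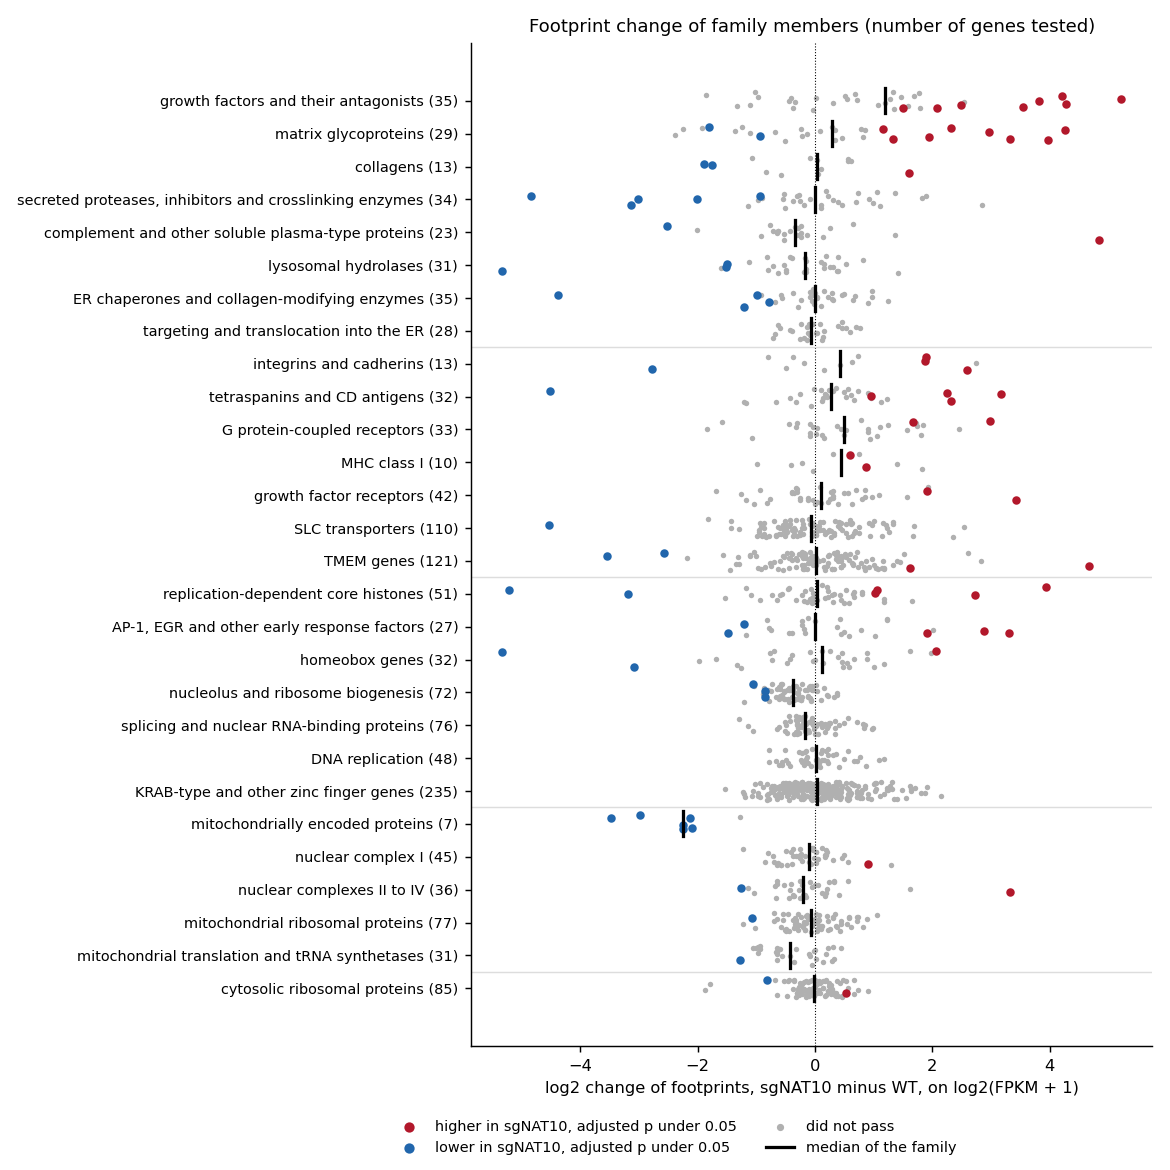
Log2 change of footprints (sgNAT10 minus WT, on log2(FPKM + 1)) of each tested member of 28 gene families, with calls at adjusted p under 0.05 in red (higher in sgNAT10) and blue (lower) and the family's median as a black bar. The 8 called growth factor genes lie right of 0, 6 of the 7 mitochondrially encoded genes are called left of 0, and the nucleolar family lies mostly left of 0 with a median of -0.37.

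Calls among secreted growth factors and their antagonists were higher in sgNAT10 cells. Of 35 tested members 8 rose (22.9%, beside 1.81% of all genes) and 0 fell, with a median log2 change of 1.19, beside -0.0015 over all genes. That median was 0.64 with a pseudocount of 5 and 0.69 with no minimum level. In mRNA 25 of 32 members rose and 5 fell, with a median of 1.26, where 33.7% of all genes rose. Grem1, which binds bone morphogenetic proteins outside the cell and blocks them, had 132 and 154 FPKM in sgNAT10 cells, against 2.83 and 2.83 FPKM in WT cells (log2 change 5.23 ± 0.21, adjusted p = 0.000614). Sema3a, a guidance cue that signals through neuropilin, had 46.1 and 41.8 FPKM in sgNAT10 cells, against 1.53 and 1.104 FPKM in WT cells (log2 change 4.28 ± 0.29, adjusted p = 0.002801). In both genes the replicates lay close together and far from the other genotype.

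FGF and EGF family ligands were among the 8. Fgf7, a mesenchymal ligand of epithelial FGF receptors, had 64.4 and 85.1 FPKM in sgNAT10 cells, against 2.54 and 3.61 FPKM in WT cells (log2 change 4.22 ± 0.28, adjusted p = 0.00269). Fgf10, of the same subfamily, had 19.97 and 10.96 FPKM in sgNAT10 cells, against 0.6204 and 0.142 FPKM in WT cells (log2 change 3.54 ± 0.45, adjusted p = 0.0205). Ereg, an EGF receptor ligand, had 18.7 and 22.6 FPKM in sgNAT10 cells, against 0.0768 and 1.18 FPKM in WT cells (log2 change 3.81 ± 0.45, adjusted p = 0.0165). WT levels of Fgf10 rest on 9 and 2 reads and those of Ereg on 1 and 15 reads. The PDGF receptor ligand Pdgfc (log2 change 2.49 ± 0.27), Bmp4 (2.08 ± 0.32) and the angiopoietin-like protein Angptl2 (1.497 ± 0.25) completed the 8.

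Among matrix glycoproteins 8 of 29 rose (27.6%, beside 1.81% of all genes) and 2 fell (6.9%, beside 1.28%), with a median log2 change of 0.29. Spp1 (osteopontin), an integrin ligand, was the most covered of them, with 3399 and 3466 FPKM in sgNAT10 cells, against 419 and 455 FPKM in WT cells (log2 change 2.97 ± 0.10, adjusted p = 0.000482). Thbs1, a thrombospondin that binds and can activate TGF-beta, had 401 and 412 FPKM in sgNAT10 cells, against 38.96 and 39.96 FPKM in WT cells (log2 change 3.33 ± 0.13, adjusted p = 0.000614). Its relative Thbs2 had 79.5 and 83.4 FPKM in sgNAT10 cells, against 3.32 and 5.34 FPKM in WT cells (log2 change 3.98 ± 0.27, adjusted p = 0.002801). The elastic fibre proteins Fbln5 (log2 change 4.27 ± 0.34) and Fbln1 (2.31 ± 0.23), Ecm1 (1.95 ± 0.22), Emilin2 (1.33 ± 0.24) and fibronectin, Fn1 (1.17 ± 0.14), also rose.

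The matrix genes that fell included chains of basement membranes. Col4a1, a chain of the sheet-forming collagen of basement membranes, had 34.8 and 30.05 FPKM in sgNAT10 cells, against 112 and 134 FPKM in WT cells (log2 change -1.89 ± 0.18, adjusted p = 0.00914). Its partner chain Col4a2 had 22.4 and 23.3 FPKM in sgNAT10 cells, against 81.5 and 77.5 FPKM in WT cells (log2 change -1.75 ± 0.17, adjusted p = 0.00914). The laminin chain Lama5 had a log2 change of -1.81 ± 0.24 (adjusted p = 0.0215), and Sparc, a collagen-binding glycoprotein, of -0.94 ± 0.13 (adjusted p = 0.0248). The fibrillar collagen chain Col1a2 was the 1 collagen of 13 that rose, with 112 and 105 FPKM in sgNAT10 cells, against 30.6 and 39.8 FPKM in WT cells (log2 change 1.61 ± 0.19, adjusted p = 0.0166). Its usual partner Col1a1 stayed below 1 FPKM in all 4 libraries.

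The largest loss of footprints in a secreted gene was that of Bgn (biglycan), a small leucine-rich proteoglycan that binds collagen. It had 1.61 and 1.52 FPKM in sgNAT10 cells, against 193 and 248 FPKM in WT cells (log2 change -6.42 ± 0.23, adjusted p = 0.000482), on 35 and 16 reads in sgNAT10 libraries and 3706 and 4634 reads in WT libraries. Enzymes that cut or process matrix, and their inhibitors, had 5 of 34 members lower (14.7%, beside 1.28% of all genes) and 0 higher, with a family median of 0.01. Mmp2, a gelatinase, had 0.0831 and 0.516 FPKM in sgNAT10 cells, against 32.1 and 39.5 FPKM in WT cells (log2 change -4.84 ± 0.35, adjusted p = 0.00345). Adamts14, which trims procollagen, had 0 reads in both sgNAT10 libraries, against 53 and 33 reads in WT libraries, and was at least 24.6-fold lower with 3 reads over the sgNAT10 group as the limit of detection (adjusted p = 0.0248). The procollagen C-proteinase enhancers Pcolce2 (log2 change -3.01 ± 0.42) and Pcolce (-0.94 ± 0.15) fell.

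Other secreted genes were called one at a time. The chemokine Ccl2, which draws monocytes, had 336 and 321 FPKM in sgNAT10 cells, against 945 and 891 FPKM in WT cells (log2 change -1.48 ± 0.11, adjusted p = 0.00329), the 1 call among 12 chemokines and cytokines. Of 7 CCN and IGF binding proteins Cyr61, a matricellular protein, fell (log2 change -1.11 ± 0.12, adjusted p = 0.0144) and Igfbp6 rose (2.52 ± 0.39, adjusted p = 0.0305). Sod3, the extracellular superoxide dismutase, had 37.7 and 45.1 FPKM in sgNAT10 cells, against 0.848 and 0.174 FPKM in WT cells (log2 change 4.84 ± 0.36, adjusted p = 0.00359). Clu (clusterin), an extracellular chaperone, had 2.69 and 3.04 FPKM in sgNAT10 cells, against 18.5 and 23.98 FPKM in WT cells (log2 change -2.51 ± 0.30, adjusted p = 0.0168). Sod3 and Clu belong to a family of 23 soluble plasma-type proteins whose median of -0.34 includes liver genes, and the share of liver reads was highest in WT replicate 1.

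**Figure D3:**
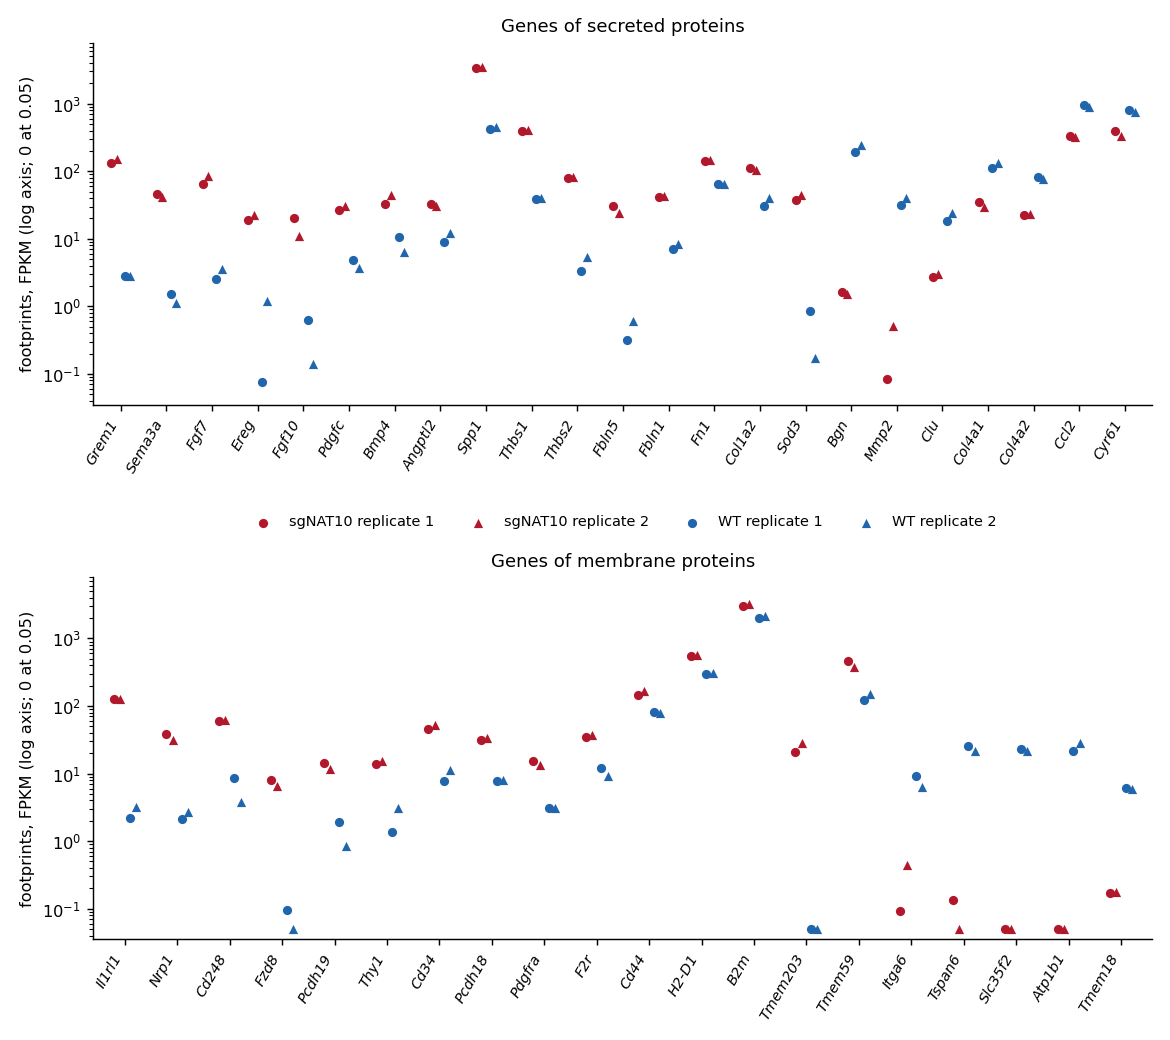
Footprint level (FPKM, log axis, 0 drawn at 0.05) in each library of 23 genes of secreted proteins and 20 genes of membrane proteins, sgNAT10 in red left of WT in blue, with circles for replicate 1 and triangles for replicate 2. The genes shown were picked from the called genes, so their genotypes do not overlap. The same holds for 51.1% of all genes tested. Spp1 reaches 3466 FPKM in sgNAT10 cells.

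Of 94 genes of the secretory pathway 7 fell (7.45%, beside 1.28% of all genes) and 0 rose. Targeting and translocation into the endoplasmic reticulum had 0 of 28 genes called by limma, with 8 at an unadjusted p under 0.05 (beside 2009 of all 9707 genes). Limma voom called 1 of them higher and 2 lower. The lowest p in that family was that of Spcs3, a signal peptidase subunit (log2 change -0.71 ± 0.17, adjusted p = 0.0992). Among lysosomal hydrolases 3 of 31 fell (9.68%, beside 1.28% of all genes), with a median of -0.16. Ctsz, a lysosomal carboxypeptidase, had 0.194 and 0.804 FPKM in sgNAT10 cells, against 59.6 and 56.1 FPKM in WT cells (log2 change -5.32 ± 0.33, adjusted p = 0.00269). Lgmn, an asparaginyl endopeptidase, had a log2 change of -1.51 ± 0.17 (adjusted p = 0.014) and Gusb, beta-glucuronidase, of -1.5 ± 0.22 (adjusted p = 0.0287).

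Chaperones and collagen-modifying enzymes of the endoplasmic reticulum had 4 of 35 members lower (11.4%, beside 1.28% of all genes) and 0 higher, with a median of 0.01. Ppic, a cyclophilin, had 0.218 and 0.451 FPKM in sgNAT10 cells, against 22.7 and 31.2 FPKM in WT cells (log2 change -4.38 ± 0.36, adjusted p = 0.00479). P4ha2, a subunit of prolyl 4-hydroxylase, which hydroxylates collagen, had a log2 change of -1.22 ± 0.16 (adjusted p = 0.0208). The thiol oxidase Ero1l had -0.99 ± 0.16 (adjusted p = 0.0378) and the prolyl isomerase Fkbp11 -0.78 ± 0.14 (adjusted p = 0.0499).

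Membrane families had more calls higher than lower, as did all genes tested. Together they had 16 of 434 genes higher (3.69%, beside 1.81% of all genes) and 6 lower (1.38%, beside 1.28%), with a median of 0.09. Il1rl1, the receptor of interleukin-33, had 129 and 128 FPKM in sgNAT10 cells, against 2.16 and 3.17 FPKM in WT cells (log2 change 5.15 ± 0.24, adjusted p = 0.000972), the 1 call among 24 cytokine and TNF receptors. Nrp1 (neuropilin), a co-receptor of semaphorins and VEGF, had 38.9 and 31.8 FPKM in sgNAT10 cells, against 2.11 and 2.66 FPKM in WT cells (log2 change 3.42 ± 0.28, adjusted p = 0.00509). Pdgfra, a PDGF receptor of mesenchymal cells, had 15.2 and 13.5 FPKM in sgNAT10 cells, against 3.13 and 3.05 FPKM in WT cells (log2 change 1.903 ± 0.30, adjusted p = 0.0327). These were the 2 calls among 42 growth factor receptors (4.76% higher, beside 1.81% of all genes), whose median was 0.10.

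Of 32 tetraspanins and CD antigens 4 rose (12.5%, beside 1.81% of all genes) and 1 fell (3.12%, beside 1.28%), with a median of 0.27. Cd248 (endosialin), a pericyte and fibroblast antigen, had 58.98 and 61.6 FPKM in sgNAT10 cells, against 8.67 and 3.82 FPKM in WT cells (log2 change 3.17 ± 0.36, adjusted p = 0.0148). Thy1 (log2 change 2.31 ± 0.38), Cd34 (2.25 ± 0.26) and the hyaluronan receptor Cd44 (0.96 ± 0.14) were the others that rose. Tspan6, a tetraspanin, had 0.136 and 0 FPKM in sgNAT10 cells, against 25.2 and 21.8 FPKM in WT cells (log2 change -4.52 ± 0.36, adjusted p = 0.00422). In a bulk library, fewer cells of a type and less RNA per cell cannot be told apart.

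Among 13 integrins and cadherins the protocadherins Pcdh19 (log2 change 2.597 ± 0.39), Pcdh18 (1.902 ± 0.23) and Pcdh7 (1.88 ± 0.27) rose, and Itga6, a laminin receptor subunit, fell. Itga6 had 0.0931 and 0.4495 FPKM in sgNAT10 cells, against 9.24 and 6.32 FPKM in WT cells (log2 change -2.78 ± 0.44, adjusted p = 0.0327). Of 33 G protein-coupled receptors 2 rose (6.06%, beside 1.81% of all genes), with a median of 0.49: F2r, the thrombin receptor (1.68 ± 0.24), and Fzd8, a WNT receptor. Fzd8 had 95 and 38 reads in sgNAT10 libraries, against 1 and 0 reads in WT libraries (adjusted p = 0.0248). MHC class I, which presents peptides to T cells, had 2 of 10 members higher (20%, beside 1.81% of all genes). Its heavy chain H2-D1 had 544 and 567 FPKM in sgNAT10 cells, against 298 and 309 FPKM in WT cells (log2 change 0.87 ± 0.11, adjusted p = 0.0188). Its light chain B2m had 3049.6 and 3206 FPKM in sgNAT10 cells, against 2017 and 2118 FPKM in WT cells (log2 change 0.597 ± 0.09, adjusted p = 0.0278). Class I heavy chain genes resemble each other, so reads could be split between them. Tap2, a subunit of the peptide transporter that loads these molecules, fell, with 0.444 and 0.153 FPKM in sgNAT10 cells, against 15.5 and 12.8 FPKM in WT cells (log2 change -3.55 ± 0.38, adjusted p = 0.0128), a gene picked after its values were seen.

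Of 110 SLC transporters 1 was called (0.909%, beside 3.09% of all genes): Slc35f2 had 0 reads in both sgNAT10 libraries, against 195 and 181 reads in WT libraries, at least 107-fold lower (adjusted p = 0.00422). Of 34 ion channels and pumps 1 was called (2.94%, close to the share of all genes): Atp1b1, the beta subunit of the sodium pump, had 0 reads in both sgNAT10 libraries, against 208 and 267 reads in WT libraries, at least 136-fold lower (adjusted p = 0.00422). No ABC transporter of 15 was called by limma, with 6 at an unadjusted p under 0.05 (beside 2009 of all 9707 genes). Limma voom called 1 higher and 1 lower. The lowest p was that of Abca1, which exports cholesterol (15.4 and 19.1 FPKM in sgNAT10 cells, against 4.84 and 6.35 FPKM in WT cells, log2 change 1.47 ± 0.29, adjusted p = 0.0647). Among 121 genes with TMEM names Tmem59 (log2 change 1.62 ± 0.17) and Tmem203 rose, and Tmem18 (-2.57 ± 0.42) and Tmem37 (-3.54 ± 0.64) fell. That was 1.65% of the family each way, beside 1.81% of all genes higher and 1.28% lower. Tmem203 had 32 and 21 reads in sgNAT10 libraries, against 0 in both WT libraries, at least 20.6-fold higher (adjusted p = 0.00422).

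Nuclear families together had 12 of 869 genes higher (1.38%, beside 1.81% of all genes) and 12 lower (1.38%, beside 1.28%), with a median log2 change of -0.09. Most members of the nucleolar family had fewer footprints in sgNAT10 cells, by small steps. Of 72 proteins of ribosome biogenesis 63 had a log2 change below 0 (87.5%, beside 50.1% of all genes tested), with a median of -0.37, and the 3 that passed the test fell. Nolc1, a nucleolar phosphoprotein that chaperones small ribonucleoproteins, had 70.4 and 87.8 FPKM in sgNAT10 cells, against 159.8 and 168 FPKM in WT cells (log2 change -1.05 ± 0.16, adjusted p = 0.0317). Wdr43, a subunit of the small subunit processome, had 92.8 and 84 FPKM in sgNAT10 cells, against 154 and 165 FPKM in WT cells (log2 change -0.85 ± 0.14, adjusted p = 0.0406). Nop16 had a log2 change of -0.85 ± 0.15 (adjusted p = 0.0482). The family's summed level was 4086 and 4047 FPKM in sgNAT10 cells, against 5589 and 5624 FPKM in WT cells.

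In mRNA 49 of the 71 nucleolar genes tested fell and 5 rose, with a median of -0.31, where 29.6% of all genes fell. The E-box CACGTG, which MYC and related factors bind, reads the same on both strands. It stood in the 250 bases before the start of 7 of 58 nucleolar genes with a RefSeq promoter window (12.1%). None of the 3 that were called held it, and 6.86% of all 27025 genes of that table did. That table also holds genes not tested here. Whether the box goes with the fall was not tested. Other machinery of the nucleus had 0 calls by limma: 76 splicing and nuclear RNA-binding proteins, 48 DNA replication proteins and 235 zinc finger genes. At an unadjusted p under 0.05 were 9 splicing, 11 replication and 25 zinc finger genes, beside 2009 of all 9707 genes. With limma voom 1 splicing gene was higher and 5 lower, 1 replication gene higher and 1 lower, and 2 zinc finger genes higher and 4 lower. The lowest p of each was that of Lsm4 (log2 change -1.05 ± 0.21, adjusted p = 0.0647), Cdt1 (-0.78 ± 0.17, adjusted p = 0.0819) and Zfp52 (1.56 ± 0.30, adjusted p = 0.0607).

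Early response factors moved in both directions, with 3 of 27 higher (11.1%, beside 1.81% of all genes) and 2 lower (7.41%, beside 1.28%). Jun, a subunit of AP-1, had 231 and 205 FPKM in sgNAT10 cells, against 49.4 and 66.3 FPKM in WT cells (log2 change 1.91 ± 0.19, adjusted p = 0.00914). Klf4, a zinc finger factor, had 12.03 and 13.9 FPKM in sgNAT10 cells, against 0 and 0.962 FPKM in WT cells (log2 change 3.31 ± 0.46, adjusted p = 0.0248). The orphan receptor Nr4a1 had 4.76 and 9.605 FPKM in sgNAT10 cells, against 0.128 and 0 FPKM in WT cells (log2 change 2.88 ± 0.49, adjusted p = 0.0421), on 1 WT read in all. Ier3, an early response gene, fell (log2 change -1.204 ± 0.17, adjusted p = 0.0258), as did Myc.

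Among 32 homeobox genes Esx1 had 0.141 and 0 FPKM in sgNAT10 cells, against 43.9 and 40.4 FPKM in WT cells (log2 change -5.34 ± 0.32, adjusted p = 0.00269). Tgif2, a repressor in TGF-beta signalling, also fell (-3.08 ± 0.44, adjusted p = 0.0248). In that family 2 genes fell (6.25%, beside 1.28% of all genes) and 1 rose (3.12%, beside 1.81%). Foxl1, a forkhead factor, had 69 and 20 reads in sgNAT10 libraries, against 0 in both WT libraries, at least 34.6-fold higher (adjusted p = 0.0435). The histone demethylase Kdm1a (log2 change 1.13 ± 0.20) and the nuclear basket protein Tpr (1.35 ± 0.20) rose, while the chromatin remodelling subunit Baz1a (-1.18 ± 0.21) and the general transcription factor subunit Gtf2e2 (-1.49 ± 0.20) fell.

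Histone genes were called in both directions. Of 51 replication-dependent core histones, whose mRNAs carry no poly(A) tail, 4 rose (7.84%, beside 1.81% of all genes) and 2 fell (3.92%, beside 1.28%), with a median of 0.03. Hist1h2ad had 113 and 122 FPKM in sgNAT10 cells, against 14.97 and 18.8 FPKM in WT cells (log2 change 2.73 ± 0.19, adjusted p = 0.00329), and Hist4h4 had 0.0978 and 0 FPKM in sgNAT10 cells, against 37.7 and 38.5 FPKM in WT cells (-5.22 ± 0.32, adjusted p = 0.00269). Of 6 linker histones Hist1h1b rose (0.78 ± 0.13, adjusted p = 0.04004) and Hist1h1a fell (-5.81 ± 0.57, adjusted p = 0.00914). Histone genes of 1 class are near-identical in sequence, so that footprint reads could be split between copies and values of single genes are uncertain. The summed level of the core histones was 12352 and 13041 FPKM in sgNAT10 cells, against 11793 and 11528 FPKM in WT cells.

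The mitochondrially encoded protein genes in the footprint table lost footprints, and their median was the lowest of the 55 families. The table held 7 such genes and 6 of these fell, with a median log2 change of -2.24. Any others were not measured. Some values rest on few reads: mt-Co1 had 82 and 35 reads in sgNAT10 libraries, against 830 and 759 in WT libraries. For mt-Nd2 they were 90 and 25, against 482 and 504. mt-Co1, the catalytic subunit of cytochrome oxidase, had 14.9 and 13.1 FPKM in sgNAT10 cells, against 170.4 and 160.04 FPKM in WT cells (log2 change -3.47 ± 0.17, adjusted p = 0.00132). The complex I subunit mt-Nd2 had 24.3 and 13.96 FPKM in sgNAT10 cells, against 147 and 158 FPKM in WT cells (log2 change -2.98 ± 0.27, adjusted p = 0.00781). The log2 changes of the complex I subunits mt-Nd5, mt-Nd1 and mt-Nd6 and of cytochrome b, mt-Cytb, lay between -2.24 and -2.09. The other gene, mt-Nd4, had 17.1 and 12.2 FPKM in sgNAT10 cells, against 43.7 and 30.02 FPKM in WT cells and did not pass (log2 change -1.27 ± 0.29, adjusted p = 0.0833).

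The mRNA of these 7 genes had a median log2 change of -0.43, with 4 of 7 lower past the test and 0 higher. mt-Co1 mRNA had 3659 and 3414 FPKM in sgNAT10 cells, against 5201 and 4530.4 FPKM in WT cells (log2 change -0.46 ± 0.08, adjusted p = 0.00437). mt-Nd1 mRNA had 6227 and 5796 FPKM in sgNAT10 cells, against 6429 and 5689.6 FPKM in WT cells (log2 change -0.01 ± 0.07, adjusted p = 0.917), and that of mt-Cytb had a log2 change of 0.01 ± 0.07 (adjusted p = 0.872). Of 4 mitochondrial RNAs that carry no reading frame 1 was called in footprint libraries: the valine transfer RNA mt-Tv had 52.8 and 134 FPKM in sgNAT10 cells, against 1241 and 661 FPKM in WT cells (log2 change -3.41 ± 0.48, adjusted p = 0.0248). The small ribosomal RNA mt-Rnr1 had 2809 and 3379 FPKM in sgNAT10 cells, against 6977 and 4579 FPKM in WT cells, without passing (log2 change -0.88 ± 0.21, adjusted p = 0.0914). Both mt-Rnr1 and mt-Nd4 were picked with their values already known. The part of these RNAs in the values of the protein genes was not tested. Copies of mitochondrial DNA in nuclear chromosomes resemble these genes, so some reads could be split.

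**Figure D4:**
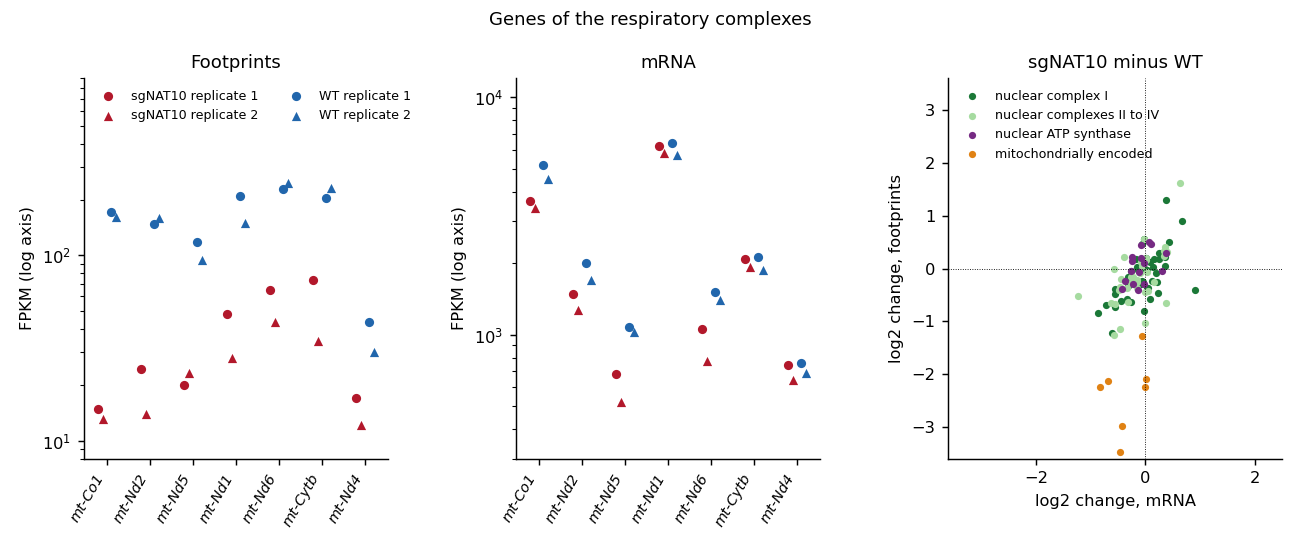
Left and middle, FPKM (log axes) of the 7 mitochondrially encoded protein genes in footprint and mRNA libraries, sgNAT10 in red left of WT in blue, with circles for replicate 1 and triangles for replicate 2. Right, log2 change (sgNAT10 minus WT) of footprints against that of mRNA for these 7 and the nuclear-encoded subunits tested in both, where the mitochondrially encoded genes lie between -1.27 and -3.47 in footprints.

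Nuclear-encoded partners of these subunits had 2 calls higher and 1 lower, shares near those of all genes. Of complex I genes 2.22% rose and 0 fell, and of complexes II to IV 2.78% rose and 2.78% fell. Of all genes 1.81% rose and 1.28% fell. The median log2 change was -0.09 for 45 genes of complex I, -0.21 for 36 genes of complexes II to IV and 0.03 for 16 genes of ATP synthase. Ndufb10, a complex I subunit, rose (131 and 151 FPKM in sgNAT10 cells, against 81.1 and 69.6 FPKM in WT cells, log2 change 0.897 ± 0.16, adjusted p = 0.0492). Uqcr10, a subunit of cytochrome bc1, fell (102 and 126 FPKM in sgNAT10 cells, against 246 and 305 FPKM in WT cells, log2 change -1.27 ± 0.18, adjusted p = 0.0248). Cox7b2 was also called, but on 3 and 1 reads in sgNAT10 libraries, against 0 in both WT libraries. No ATP synthase gene was called by limma, with 3 of the 16 at an unadjusted p under 0.05 (beside 2009 of all 9707 genes). Limma voom called 2 lower. The lowest p was that of Atp5k (log2 change -0.38 ± 0.10, adjusted p = 0.123).

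Genes that run mitochondrial gene expression had few calls, and these were lower. Lrpprc, which stabilises mitochondrial mRNAs, had 25.9 and 24.7 FPKM in sgNAT10 cells, against 69.2 and 56.4 FPKM in WT cells (log2 change -1.27 ± 0.19, adjusted p = 0.0298). It was the 1 call among 31 genes of mitochondrial translation and transfer RNA charging (3.23% lower, beside 1.28% of all genes), whose median was -0.42. Of these 22 had a log2 change below 0 (71%, beside 50.1% of all genes), and limma voom called 4 lower and 0 higher. In mRNA 17 of 30 fell and 0 rose, where 29.6% of all genes fell. Of 77 mitochondrial ribosomal proteins 1 was called (1.30% lower, beside 1.28%), Mrpl34 (log2 change -1.07 ± 0.15, adjusted p = 0.0248), with a family median of -0.06. No gene was called by limma among 27 of protein import, 27 carriers, 18 of the citric acid cycle, 17 chaperones and proteases, 8 of folate and proline synthesis and 23 of fatty acid oxidation. In that order 6, 8, 5, 3, 3 and 4 of them had an unadjusted p under 0.05, beside 2009 of all 9707 genes. Limma voom called 2 carriers higher and 1 lower, and lower 2 genes of the citric acid cycle, 2 chaperones or proteases and 1 of folate and proline synthesis. Their lowest adjusted p values were those of Tomm7 (0.0783), Slc25a33 (0.0597), Dld (0.0879), Lonp1 (0.0638), Shmt2 (0.0714) and Decr1 (0.188).

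Cytosolic families served as a comparison. The summed level of 85 cytosolic ribosomal proteins was 30234 and 30024 FPKM in sgNAT10 cells, against 31554 and 29232 FPKM in WT cells, and their median log2 change was -0.01. Rps29 fell, with 791 and 689 FPKM in sgNAT10 cells, against 1231 and 1361 FPKM in WT cells (log2 change -0.81 ± 0.12, adjusted p = 0.0267). Ribosomal protein genes have many processed pseudogenes, so single values are uncertain. Of 18 chaperonins and heat shock proteins 2 rose (11.1%, beside 1.81% of all genes) and 2 fell (11.1%, beside 1.28%). The small heat shock protein Cryab had 138 and 136 FPKM in sgNAT10 cells, against 1.29 and 0 FPKM in WT cells (log2 change 6.51 ± 0.42, adjusted p = 0.00269), and Hspb6 had a log2 change of 2.96 ± 0.46 (adjusted p = 0.0312). The HSP90 genes Hsp90aa1 (-0.61 ± 0.11, adjusted p = 0.04699) and Hsp90ab1 (-0.56 ± 0.09, adjusted p = 0.03905) fell. Of 61 translation factors, 45 proteasome genes and 20 cytosolic transfer RNA synthetases, none was called by limma, with the lowest adjusted p at 0.0694 for Eif3i, 0.0879 for Psmg4 and 0.0713 for Iars. At an unadjusted p under 0.05 were 10, 15 and 5 of them, beside 2009 of all 9707 genes. Limma voom called 2 translation factors higher and 5 lower, 2 proteasome genes higher and 3 lower, and 4 synthetases lower. Of 20 actin and tubulin genes 1 was called: Actg2, a smooth muscle actin close in coding sequence to other actins, had 28 and 19 reads in sgNAT10 libraries, against 0 in both WT libraries, at least 18.3-fold higher (adjusted p = 0.0329).

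Genes outside the families held 123 of the 176 calls higher and 73 of the 124 lower. Among the 8 largest gains of these genes, leaving out predicted genes (names of Gm and digits, or ending in Rik) and means under 5 FPKM, were Sgk1, a kinase that serum and glucocorticoid hormones induce, with 259.7 and 281 FPKM in sgNAT10 cells, against 7.05 and 6.98 FPKM in WT cells (log2 change 5.08 ± 0.17, adjusted p = 0.000482), and Ptgs2 (cyclooxygenase 2), with 99.8 and 112 FPKM in sgNAT10 cells, against 5.68 and 2.85 FPKM in WT cells (4.397 ± 0.31, adjusted p = 0.00329). The caveolar coat protein Cavin2 had 254 and 269.8 FPKM in sgNAT10 cells, against 19.6 and 20.6 FPKM in WT cells (log2 change 3.64 ± 0.15, adjusted p = 0.000614). U90926 (log2 change 5.43 ± 0.35), Fhl1 (4.04 ± 0.40), the sulfide oxidising enzyme Sqor (3.79 ± 0.34) and the transcription factor Cebpd (3.75 ± 0.53) were also among them. Akr1c18 had 17 and 15 reads in sgNAT10 libraries, against 0 in both WT libraries, at least 12.4-fold higher.

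The largest log2 loss of all genes was that of Crabp1, a cellular retinoic acid binding protein, with 1.75 and 6.504 FPKM in sgNAT10 cells, against 361 and 449 FPKM in WT cells (log2 change -6.47 ± 0.46, adjusted p = 0.00329). The fatty acid binding protein Fabp5 had 0.157 and 0.325 FPKM in sgNAT10 cells, against 42.8 and 37.9 FPKM in WT cells (log2 change -5.06 ± 0.32, adjusted p = 0.00269). Cyba (log2 change -5.199 ± 0.49), a subunit of NADPH oxidase, Rps6ka6 (-4.97 ± 0.33), a ribosomal S6 kinase, Tex101 (-4.503 ± 0.52), the necroptosis kinase Ripk3 (-3.95 ± 0.35), the heparan sulfatase Sulf2 (-3.86 ± 0.37) and Rbfa (-3.84 ± 0.42) completed the 8 largest losses outside families by the same rule. The rule leaves out Gm24270, an annotated microRNA whose loss was larger than theirs. Rbfa is a factor of mitochondrial ribosome maturation, and had 0.203 and 0 FPKM in sgNAT10 cells, against 18.7 and 11.6 FPKM in WT cells.

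Actin-binding and adhesion genes were grouped by 4 Gene Ontology terms after their values were seen (focal adhesion, stress fiber, actin cytoskeleton and actin binding). Of 379 tested members 27 were higher (7.12%, beside 1.81% of all genes) and 5 lower (1.32%, beside 1.28%), with a median log2 change of 0.20. The 27 include the receptors Il1rl1 and Nrp1. Tpm1, a tropomyosin, had 240.03 and 251 FPKM in sgNAT10 cells, against 102 and 99.96 FPKM in WT cells (log2 change 1.28 ± 0.13, adjusted p = 0.00946). Vcl (vinculin), which links integrin adhesions to actin, had 81.5 and 76.1 FPKM in sgNAT10 cells, against 33.5 and 31.5 FPKM in WT cells (1.25 ± 0.17, adjusted p = 0.0227). Myl9, a myosin light chain, had 28.7 and 28.9 FPKM in sgNAT10 cells, against 2.73 and 3.64 FPKM in WT cells (2.84 ± 0.28, adjusted p = 0.00914). Zyx (log2 change 1.499 ± 0.17), Flna (1.35 ± 0.22), Cnn2 (1.27 ± 0.17), Parva (2.13 ± 0.24) and Cav1 (1.64 ± 0.19) rose as well, while Ezr, which ties actin to the plasma membrane, fell (-2.31 ± 0.18, adjusted p = 0.00424). The others that fell were Cyba (-5.199 ± 0.49), Lasp1 (-1.402 ± 0.25), Smtn (-1.003 ± 0.17) and Tmsb10 (-0.81 ± 0.14).

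The CArG box, the site of serum response factor, was searched on both strands in the 250 bases before the start. It was found in 3 of the 22 risen actin and adhesion genes that have a RefSeq promoter window (13.6%). Over all 27025 genes of that table the share was 1.62%. The 22 were picked because they rose, and actin and adhesion genes that did not rise were not counted. Whether the box goes with the rise was not tested. The 3 windows are shown with the box in capitals. They lie on the plus strand of GRCm38.p6 at chr2:156775214-156775463 (Myl9), chr10:79988350-79988599 (Cnn2) and chr14:20929148-20929397 (Vcl), end at the base before the annotated start, and a match is a description of letters, not of binding.
Myl9: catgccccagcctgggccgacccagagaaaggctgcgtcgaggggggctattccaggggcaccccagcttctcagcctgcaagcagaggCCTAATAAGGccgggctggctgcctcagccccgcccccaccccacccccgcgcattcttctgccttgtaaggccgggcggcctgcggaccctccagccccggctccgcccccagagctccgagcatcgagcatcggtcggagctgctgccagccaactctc
Cnn2: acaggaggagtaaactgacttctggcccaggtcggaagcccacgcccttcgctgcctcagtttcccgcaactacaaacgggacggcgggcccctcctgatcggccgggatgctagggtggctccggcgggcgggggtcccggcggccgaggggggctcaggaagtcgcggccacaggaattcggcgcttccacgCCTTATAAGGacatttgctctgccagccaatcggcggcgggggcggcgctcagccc
Vcl: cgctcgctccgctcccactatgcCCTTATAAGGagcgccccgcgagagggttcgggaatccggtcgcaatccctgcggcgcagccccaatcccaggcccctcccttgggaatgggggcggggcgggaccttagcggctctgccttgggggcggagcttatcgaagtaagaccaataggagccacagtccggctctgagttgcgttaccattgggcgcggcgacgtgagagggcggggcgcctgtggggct
The box begins 161 bases before the start in Myl9, 56 in Cnn2 and 227 in Vcl. Both the Cnn2 and the Vcl box read CCTTATAAGG.

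Footprint calls were set beside mRNA of the same genotypes, from separate libraries in which 63.3% of 11735 genes were called (33.7% higher and 29.6% lower). As deposited that is 3960 genes higher and 3471 lower, and the balance turned over with median scaling (3412 higher and 4097 lower) and quantile normalization (3464 higher and 3992 lower). Of the 300 footprint calls 291 were tested in mRNA, and 273 of them (93.8%) were called in the same direction there. They make up 4.42% of the 6173 mRNA calls among genes tested in both. The 172 genes higher in footprints had a median log2 change of 1.90 in footprints and 1.54 in mRNA, and the 119 lower genes -2.004 in footprints and -1.16 in mRNA. These genes were picked on their footprint values, which can enlarge the footprint medians but not those of mRNA. The medians therefore cannot be compared in size, and the difference between the readouts was not tested.

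The other 18 calls either did not pass in mRNA (16) or passed in the opposite direction (2). The 2 were 2810001G20Rik, an antisense RNA whose reads may be those of its partner since strand use in counting is not given, and Fth1. Fth1, the ferritin heavy chain, whose translation iron controls, had 271 and 224 FPKM of footprints in sgNAT10 cells, against 467 and 499.9 FPKM in WT cells (log2 change -0.97 ± 0.14, adjusted p = 0.0248). Its mRNA had 1531 and 1534 FPKM in sgNAT10 cells, against 1090.3 and 1106 FPKM in WT cells (log2 change 0.48 ± 0.03, adjusted p = 0.0001095). The light chain Ftl1, not called in footprints (log2 change -0.37 ± 0.28, adjusted p = 0.502), rose in mRNA (0.85 ± 0.03, adjusted p = 2.49e-05). These ferritin values were singled out after they were seen.

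Among the 16, beside mt-Nd1, mt-Cytb and Rps29, was Tmem203, whose mRNA was 6.25 and 4.93 FPKM in sgNAT10 cells, against 4.17 and 4.65 FPKM in WT cells (log2 change 0.28 ± 0.11, adjusted p = 0.0748). Mapk1ip1 had 47 and 23 footprint reads in sgNAT10 libraries, against 0 in both WT libraries, with an mRNA log2 change of 0.29 ± 0.12 (adjusted p = 0.0833). Mgmt, a DNA repair protein, had 24.2 and 24.6 FPKM of footprints in sgNAT10 cells, against 8.22 and 9.46 FPKM in WT cells (log2 change 1.37 ± 0.24), and an mRNA log2 change of 0.07 ± 0.06 (adjusted p = 0.303). Mapk1ip1, Mgmt and Rny1 were chosen after their values were seen. Most of the rest were non-coding: the Y RNA Rny1 had 40.02 and 36.2 FPKM in sgNAT10 cells, against 255 and 224 FPKM in WT cells (log2 change -2.62 ± 0.16, adjusted p = 0.00269).

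**Figure D5:**
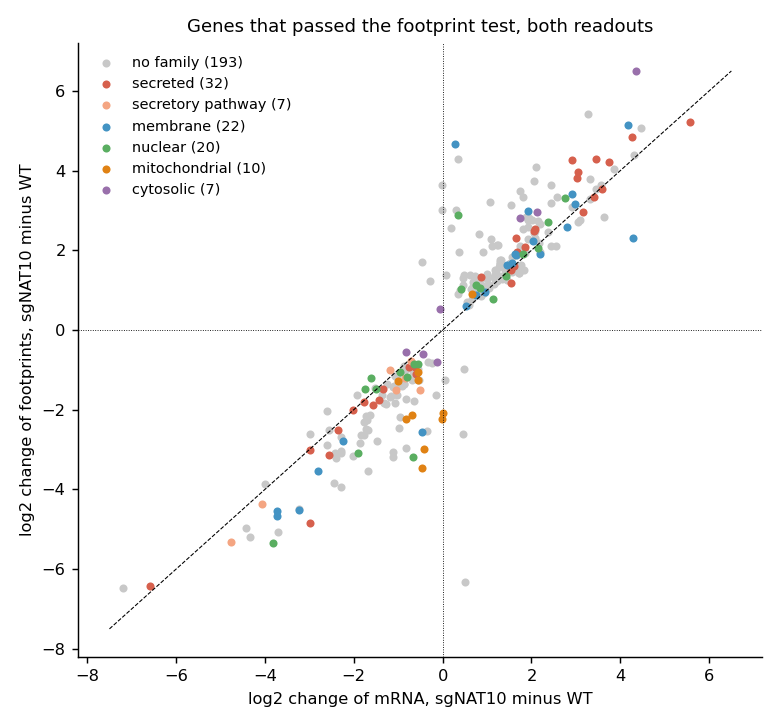
Log2 change (sgNAT10 minus WT) of footprints against that of mRNA for the 291 genes called in footprints and tested in mRNA, coloured by compartment of their family, with the dashed line where both are equal. Of the 291 genes, 273 passed in the same direction in both readouts, and the mitochondrially encoded genes lie below the line.

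The minimum of 1 FPKM was passed by 9707 genes, and 1267 genes were below it. Just inside it were Tmem104, with 0.0608 and 0.251 FPKM in sgNAT10 cells, against 1.86 and 1.84 FPKM in WT cells, and Ino80d, with 1.08 and 1.54 FPKM in sgNAT10 cells, against 1.003 and 0.405 FPKM in WT cells. Just outside were Ermard, with 0.97 and 1.22 FPKM in sgNAT10 cells, against 1.298 and 0.513 FPKM in WT cells, and Gm34220, with 0 and 1.07 FPKM in sgNAT10 cells, against 2.93 and 0 FPKM in WT cells.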

How the data were processed

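Ribo-seq of 2 sgNAT10 and 2 WT libraries was analysed, with mRNA-seq of 2 and 2 libraries as a second readout. The authors deposited FPKM values per gene. Per the submitters' processing notes, FastQC, Trim Galore, Bowtie2, featureCounts and mm10 were used; versions, footprint length selection and rRNA removal are not given in the sources used here. The deposited fold changes and p-values were not used. Genes whose mean reached 1 FPKM were tested on log2(FPKM + 1) with limma 3.58.1 in R 4.3.3 (eBayes with trend), with p-values adjusted by Benjamini-Hochberg over all genes tested, and called under 0.05. Whole reads were recovered from FPKM ratios (relative tolerance 2e-09) for 99.98% of footprint genes and 99.88% of mRNA genes, and were used for depth, for limma voom as an alternative and for folds against 0 reads (3 reads over the group). The fit was tested on simulated data, in which it missed most of the planted footprint changes, so a family with no call is not shown to be unchanged. It called 0 of 106 planted log2 changes of 1 and 23 of 86 of 2, in either direction. It also called 8 genes with no planted change, so false calls were more frequent there than the threshold of 0.05 states. Replicates differed beyond counting noise (chi-square per degree of freedom 7.16 in sgNAT10 and 12 in WT). Families were set by gene symbol and compartments by Gene Ontology terms that the authors deposited with another mRNA table of the series, used as annotation only. Symbols that a pattern had caught by mistake were taken out after the tables were seen. The members and lists were chosen with earlier results of these data known. Named genes were the 6 largest called changes each way per compartment, 2 per family and 8 outside families, with a higher mean of at least 5 FPKM and without predicted genes (Gm and digits, Rik, -ps), and in families without a call the gene of lowest p; others are marked as chosen after their values were seen. Values of a few called genes are not reported here. Promoter windows are from RefSeq (GRCm38.p6).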

Additional observations from a re-analysis of the deposited data

How the results depend on the processing

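The count of footprint calls (300, with 176 higher and 124 lower) stayed within 1.5 times under pseudocounts of 0.5 and 5, no minimum, a minimum mean of 5 FPKM, quantile normalization, median scaling and, added after seeing the data, with only genes of at least 0.2 FPKM in mRNA (331), which leaves out 19 of the 20 hepatocyte genes. No variance trend left 87 calls, 45 higher and 42 lower. On recovered reads, limma voom gave 846, with 426 higher and 420 lower, and kept 256 of the 299 calls it could fit. Leaving out 1 library gave 0 to 0 calls in each direction with limma (1205 to 1756 genes at unadjusted p under 0.05); 1 genotype then has a single library, assumed to vary like the other. With the replicate block 240 genes were called, 142 higher and 98 lower. The replicate numbers are labels without a stated batch, and deviations of same-numbered libraries correlated at 0.02 over 9705 genes, so the block was not used. In mRNA, calls stayed within 1.5 times of 7431 in each alternative (5096 to 8632). The median of the growth factor family was 0.64 with a pseudocount of 5 and 0.69 with no minimum. Of 182 named genes, 100 lost their call without the trend, 31 with the block and 16 in limma voom, while 10 that had missed the test were called in limma voom. The cause of these shifts was not tested. The protein-based sequence classes were not run. Depth limits genes near 1 FPKM: sgNAT10 replicate 2 held 59 reads at the median tested gene.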

Other observations

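RNAs that hold no known reading frame were also covered by reads in the footprint libraries, chosen here after their values were seen. The locus Gm42418, which overlaps ribosomal RNA sequence, had 6829.8 and 8918 FPKM in sgNAT10 cells, against 18359.7 and 18647 FPKM in WT cells (log2 change -1.25 ± 0.13, adjusted p = 0.0127), while its mRNA-library values had a log2 change of 0.05 ± 0.06 (adjusted p = 0.4903). The large mitochondrial ribosomal RNA mt-Rnr2 had 17718 and 21624 FPKM in sgNAT10 cells, against 31547 and 18449 FPKM in WT cells (log2 change -0.302 ± 0.25, adjusted p = 0.549). The small nucleolar RNA Snord87 rose (log2 change 1.22 ± 0.17, adjusted p = 0.0248). Among 361 tested genes that are not protein coding, 8 rose and 10 fell.

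Nqo1, a quinone reductase, had 51.9 and 50.4 FPKM of footprints in sgNAT10 cells, against 14.5 and 10.1 FPKM in WT cells (log2 change 1.99 ± 0.24, adjusted p = 0.0175). Nfe2l2, which encodes the oxidative stress factor NRF2, had 65.1 and 72.5 FPKM in sgNAT10 cells, against 29.1 and 33.6 FPKM in WT cells (log2 change 1.11 ± 0.18, adjusted p = 0.0377). A list of NRF2 target genes was not examined. Mfn2, a fusion protein of the mitochondrial outer membrane, had 30.1 and 27.1 FPKM in sgNAT10 cells, against 7.21 and 11.04 FPKM in WT cells (log2 change 1.57 ± 0.28, adjusted p = 0.04699). Cdkn1a, the cell cycle inhibitor p21, fell (log2 change -1.36 ± 0.22, adjusted p = 0.0337), as did the nucleolar genes Pdcd11 (-1.63 ± 0.19, adjusted p = 0.0168) and Lyar (-1.24 ± 0.20, adjusted p = 0.0348), which the symbol patterns of the nucleolar family do not catch. All were chosen after their values were seen.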
